A study of Mus musculus with 16 samples.

Results

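The assembled lncRNA loci are the 144 rows that the authors typed as lncRNA genes without an annotation among the 26625 rows of their expression table from the mouse medial prefrontal cortex (mPFC). They were taken by that type alone, whatever their values. Each is a locus assembled from the study's own Nanopore reads and is known only by a number, such as ONT.13476. Another 7066 assembled loci are typed as new genes, 346 rows are known lncRNA loci and 19069 are known genes. RNA came from 16 male C57BL/6 mice aged 8 to 10 weeks in 4 groups, with 3 mice in Ctrl + Saline, 4 in Ctrl + Morphine, 5 in Kdm7a-shRNA + Saline and 4 in Kdm7a-shRNA + Morphine. All 16 mice had an adeno-associated virus injected into the mPFC that carried a U6-driven hairpin and CMV-driven EGFP, directed against Kdm7a in the Kdm7a-shRNA mice and a negative control in the Ctrl mice. Neither promoter is limited to neurons, and the share of infected cells was not measured in these data. The mice were then conditioned for 10 days with saline, or with morphine at 10 mg/kg on every other day and saline between. Tissue was taken on day 17, after 7 days of withdrawal and right after a place preference test.

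Long noncoding RNAs are transcripts that are not translated. Many are transcribed by RNA polymerase II, spliced and polyadenylated like mRNA, and their known roles range from guiding chromatin regulators, through hosting small RNAs in their introns, to no detected role of the transcript itself. In the brain they are numerous, often low in abundance and often restricted to a single cell type, so that an assembled locus in cortex can come from neurons, glia or blood-borne cells. KDM7A is a demethylase that removes repressive methyl marks from histones. For none of the 144 loci is a function known here, and the tool that called them noncoding is not given in the sources used here.

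Kdm7a (ENSMUSG00000042599, GRCm38, chr6:39136623-39206789, minus strand) was checked first. Its normalized CPM, the CPM computed on library sizes scaled by edgeR's TMM factors, ran from 9.08 to 9.78 in the Ctrl + Saline mice and from 4.93 to 6.07 in the Kdm7a-shRNA + Saline mice. It ran from 6.19 to 8.89 in the Ctrl + Morphine mice and from 3.01 to 6.28 in the Kdm7a-shRNA + Morphine mice, so that these groups overlapped. Kdm7a fell by 0.76 on the log2 scale under saline (standard error, SE, 0.204, adjusted p = 0.0153), while the change under morphine was -0.67 (SE 0.206, adjusted p = 0.0506). Total counts ran from 6596991 to 12418112 reads per mouse. A count of 3 in a mouse corresponds to 0.242 to 0.455 CPM, and the counts are of PCR-amplified reads, so any precision drawn from them covers counting error only.

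The question for these loci is how abundant they are and whether morphine withdrawal or Kdm7a knockdown moved them. Together they held 439344 of the 141467680 reads, or 0.311%, against 0.785% for the known lncRNA loci and 8.76% for the new genes. A single locus, ONT.13476, took 43.2% of their reads, the first 3 took 61.5% and the first 10 took 81.1%. The median locus had 199 reads over the 16 mice, the lowest had 20, and 113 of the 144 had at least 1 read in every mouse. The table gives no transcript length, so these values compare reads and not molecules per length between loci.

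**Figure D1:**
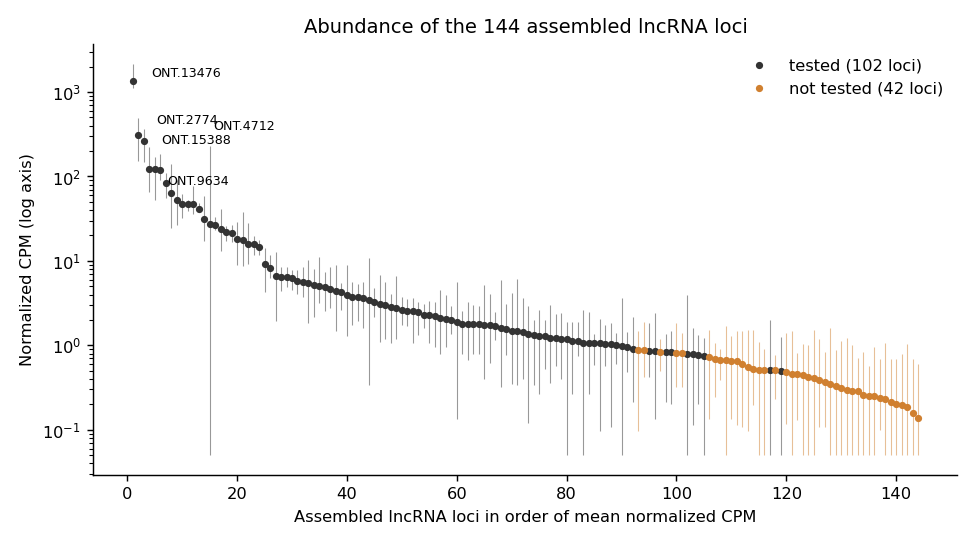
Mean normalized CPM (log axis) of each of the 144 assembled lncRNA loci in order of abundance, with a line from the lowest to the highest mouse, where values under 0.05 are drawn at 0.05. ONT.13476 stands above the rest, most loci lie under 10 normalized CPM, and ONT.4712 spans the widest range.

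By abundance, 6 loci averaged over 100 normalized CPM, 24 averaged over 10, 65 lay from 1 to 10 and 55 lay under 1. edgeR's filterByExpr kept 102 of the 144 loci (70.8%), compared with 81.5% of the known lncRNA loci, 60.6% of the new genes and 74.3% of the known genes. The 42 loci left out had 20 to 123 reads in all and at most 18 in a mouse, and entered no comparison below except in a fit without a filter. That fit called 14 of the 144 loci under morphine, 11 of them shared with the filtered fit, and 17 under saline, 15 of them shared. Of its 26588 rows it called 574 higher and 887 lower under morphine, and 1384 higher and 2018 lower under saline. The calls among the 42 loci were all higher after knockdown, ONT.16985 in both comparisons, ONT.8206 and ONT.9170 under morphine and ONT.12934 under saline, named after their values were seen. ONT.16985 had 2 reads over the 7 Ctrl mice and 40 over the 9 Kdm7a-shRNA mice. Among the tested loci the median biological coefficient of variation was 0.248, compared with 0.1997 over all 18826 rows tested. It ran from 0.0767 to 2.03.

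ONT.13476 was the most abundant locus in every mouse. Its normalized CPM was 1345 to 1405 in the Ctrl + Saline mice, 1144 to 1390 in the Ctrl + Morphine mice and 1228 to 1473 in the Kdm7a-shRNA + Saline mice. In the Kdm7a-shRNA + Morphine group mouse 2 had 2172, while the others had 1106, 1148 and 1190. The groups overlapped, and the log2 fold change of knockdown was 0.16 under morphine (adjusted p = 0.598) and 0.01 under saline (adjusted p = 0.976). Since this locus weighed so heavily, mouse 2 also had the highest share of reads on assembled lncRNA loci, 0.392%.

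Without ONT.13476, the share of reads on the other 143 loci was 0.196 to 0.229% in the Ctrl + Saline mice, 0.190 to 0.205% in the Ctrl + Morphine mice, 0.129 to 0.167% in the Kdm7a-shRNA + Saline mice and 0.140 to 0.189% in the Kdm7a-shRNA + Morphine mice. On these totals every Kdm7a-shRNA mouse lay below the Ctrl mice of its treatment. Over library sizes scaled by TMM the saline groups stayed apart, at 0.192 to 0.219% and 0.136 to 0.174%, while the morphine groups overlapped, at 0.186 to 0.192% and 0.150 to 0.191%. This share is led by the next most abundant loci. It is a description and was not tested.

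ONT.2774 was the second most abundant locus, with 391, 418 and 488 normalized CPM in the Ctrl + Saline mice and 327, 207, 239, 304 and 212 in the Kdm7a-shRNA + Saline mice. These groups did not overlap, and it fell by 0.74 on the log2 scale (SE 0.229, adjusted p = 0.0293). The call was lost without Ctrl + Saline mouse 2 or 3 and without Kdm7a-shRNA + Saline mouse 2, 3 or 5. Within groups the locus was lower in the mice with higher microglia markers, which are described below (r = -0.85, rho = -0.81, exact permutation p = 0.00284 and 0.00318, adjusted p = 0.0649 and 0.0424). Without the 2 extreme mice, those whose marker level lay farthest from their group's mean, r was -0.66. ONT.2774 was also lower with higher endothelial (r = -0.76, rho = -0.72) and astrocyte markers (r = -0.74, rho = -0.73). The exact permutation test gave adjusted p of 0.0696 and 0.0946 for the former and 0.07 and 0.0985 for the latter. The part of these markers in its fall was not tested. Under morphine it had 272 to 339 in the Ctrl mice and 153 to 419 in the Kdm7a-shRNA mice, and the log2 fold change was -0.12 (adjusted p = 0.797).

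ONT.15388, the third, had 287 to 305 normalized CPM in the Ctrl + Saline mice and 147 to 267 in the Kdm7a-shRNA + Saline mice. Its log2 fold change of -0.53 (adjusted p = 0.0239) missed the fold change threshold of 1.5. ONT.10386 was similar, at 90.7 to 107 against 55.5 to 80.8, and its log2 fold change was -0.58 (adjusted p = 0.0183). All Ctrl + Saline mice lay above all Kdm7a-shRNA + Saline mice at both loci, and neither counts as called.

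Among the next most abundant loci, 5 passed in neither knockdown comparison. ONT.2222 averaged 122 normalized CPM and ONT.4003 averaged 120, and their log2 fold changes ran from -0.27 to 0.41 over both knockdown comparisons. ONT.13757 (mean 63.8) ran from 24.7 to 139 normalized CPM, and its log2 fold change under saline was -0.95 (adjusted p = 0.0632). ONT.20063 (mean 52.7) ran from 26.8 to 89.6 and was lower in the mice with higher microglia markers (r = -0.84, rho = -0.85, exact permutation p = 0.00386 and 0.00126, adjusted p = 0.0696 and 0.0255, r = -0.72 without the 2 extreme mice). It was also lower with higher endothelial markers (r = -0.73, rho = -0.77, exact permutation test, adjusted p = 0.0696 and 0.0319). With higher neuronal markers it was higher (r = 0.83, rho = 0.80, exact permutation test, adjusted p = 0.0649 and 0.0424). ONT.3996 averaged 47.7. At ONT.2222, Ctrl + Saline mouse 3 had 52.5 normalized CPM, while mice 1 and 2 of that group had 113 and 149.

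Knockdown of Kdm7a moved loci in both directions. Under saline, 18 of the 102 tested loci passed the thresholds (adjusted p under 0.05 in edgeR's quasi-likelihood test and a fold change of at least 1.5), 7 higher and 11 lower in the Kdm7a-shRNA mice. Over all rows tested, 7.43% passed as higher and 9.31% as lower, so the loci's own shares of 6.86% and 10.8% lay near the background. Under morphine 11 loci passed, 5 higher (4.90%) and 6 lower (5.88%), with a background of 2.86% higher and 4.83% lower. In both comparisons 7 loci passed, all 7 in the same direction, 6 lower and 1 higher. The overlap over all rows tested was not counted, so nothing particular to these loci is read from it.

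Their balance differed from that of the other assembled loci in these numbers. Of the 4280 new genes tested, 30.6% passed as lower and 1.71% as higher under saline, and 16.8% and 0.888% under morphine. The median log2 fold change of the tested assembled lncRNA loci was -0.02 under saline and 0.09 under morphine, while that of the new genes was -0.60 and -0.34. For the known lncRNA loci it was 0.29 and 0.28, and for all rows 0.02 and 0.00. The difference between the classes was not tested.

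The calls depended on the mice, as did those over all rows. Leaving out 1 mouse at a time gave 9 to 24 calls under saline, with 9 without Ctrl + Saline mouse 2 and also without Ctrl + Saline mouse 3. Under morphine it gave 3 to 12, with 3 without Kdm7a-shRNA + Morphine mouse 3, 4 without Ctrl + Morphine mouse 3 or 4, 6 without Ctrl + Morphine mouse 1 and 7 without Kdm7a-shRNA + Morphine mouse 1. Over all rows tested the same fits called 1424 to 3730 rows under saline and 568 to 2066 under morphine. The lowest of these came without Ctrl + Saline mouse 3 and without Kdm7a-shRNA + Morphine mouse 3. When library sizes were not scaled by TMM, which moved the median of all rows to -0.12 under saline and -0.11 under morphine, 4 loci were higher and 18 lower under saline and 2 higher and 8 lower under morphine. Of all 18826 rows, 967 were then higher and 2342 lower under saline, and 394 and 1246 under morphine.

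**Figure D2:**
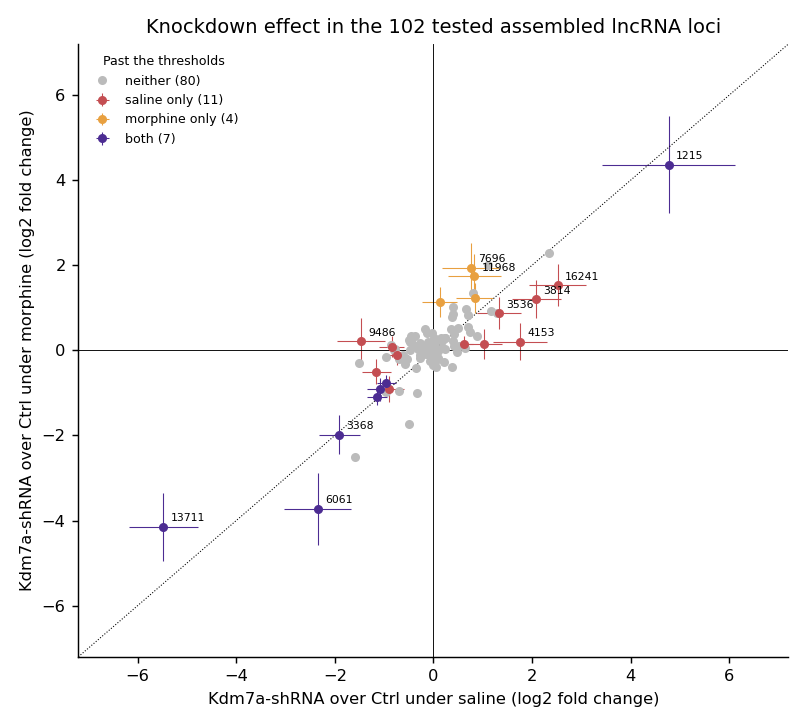
Log2 fold change of Kdm7a-shRNA over Ctrl under saline (horizontal) and under morphine (vertical) for the 102 tested loci, with standard errors for called loci and the last digits of the name for those with larger changes. The 7 loci called in both have the same sign on both axes, with ONT.13711 and ONT.6061 farthest from the dotted line of equal change, and 80 loci passed in neither.

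The loci that fell in both comparisons were ONT.13711, ONT.17830, ONT.9634, ONT.3368, ONT.5966 and ONT.6061. They differ widely in abundance, from under 1 to over 100 normalized CPM.

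ONT.13711 had 13, 12 and 15 reads in the Ctrl + Saline mice and 5, 5, 6 and 12 in the Ctrl + Morphine mice. In the Kdm7a-shRNA mice it had a single read in saline mouse 5, a single read in morphine mouse 2 and none in the other 7. It was therefore nearly undetected after knockdown, with no overlap between the viruses. The pooled normalized counts were 70.4 times higher in Ctrl under saline (40 reads against 1, exact 95% counting interval 11.9 to 2850) and 25.7 times higher under morphine (28 reads against 1, interval 4.25 to 1050). The adjusted p was 2.01e-04 and 0.00589. Both calls held whichever mouse was left out and under every other setting that tested the locus. The locus passed the filter only through Ctrl mice, where it was high, so that its being tested depended on this difference.

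ONT.17830 varied little within the Ctrl + Saline and the Kdm7a-shRNA + Morphine group, and more within the others. It had 7.80, 7.32 and 7.95 normalized CPM in the Ctrl + Saline mice and 2.18, 3.57, 3.32, 3.49 and 4.72 in the Kdm7a-shRNA + Saline mice. Under morphine the Ctrl mice had 7.89, 5.34, 7.91 and 7.596 and the Kdm7a-shRNA mice 3.37, 2.998, 3.52 and 3.62. Every Kdm7a-shRNA mouse lay below every Ctrl mouse. It fell by 1.14 on the log2 scale under saline (SE 0.209, adjusted p = 0.00175) and by 1.08 under morphine (SE 0.21, adjusted p = 0.00619). The calls held under each alternative run.

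ONT.9634 was the most abundant of the 6. Its normalized CPM was 134, 152 and 187 in the Ctrl + Saline mice and 82.6, 71.6, 90.5, 66.0 and 95.8 in the Kdm7a-shRNA + Saline mice. It was 132, 130, 193 and 225 in the Ctrl + Morphine mice and 114, 116, 95.6 and 73.9 in the Kdm7a-shRNA + Morphine mice. Again no Kdm7a-shRNA mouse reached a Ctrl mouse. It fell by 0.96 under saline (SE 0.19, adjusted p = 0.00294) and by 0.77 under morphine (SE 0.189, adjusted p = 0.0188). The morphine call was lost without Ctrl + Morphine mouse 3 or 4, without Kdm7a-shRNA + Morphine mouse 3, and in a fit of these groups alone.

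ONT.3368 had 5.42, 5.07 and 10.9 normalized CPM in the Ctrl + Saline mice and 1.15, 1.84, 1.90, 2.25 and 2.21 in the Kdm7a-shRNA + Saline mice. Under morphine it had 5.29, 2.03, 6.70 and 5.67 in the Ctrl mice and 1.23, 1.20, 0.344 and 2.42 in the Kdm7a-shRNA mice. Ctrl + Morphine mouse 2 lay within the Kdm7a-shRNA range, and the saline groups did not overlap. It fell by 1.91 under saline (SE 0.413, adjusted p = 0.00469) and by 1.98 under morphine (SE 0.452, adjusted p = 0.0135). Both calls held under each alternative that tested the locus.

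ONT.5966 had 20.9 to 38.2 normalized CPM in the Ctrl + Saline mice and 8.77 to 17.9 in the Kdm7a-shRNA + Saline mice, and fell by 1.08 (SE 0.261, adjusted p = 0.00897). Without Ctrl + Saline mouse 3 this call was lost. Under morphine it ran from 13.1 to 27.6 in the Ctrl mice and from 8.86 to 15.8 in the Kdm7a-shRNA mice, with overlap, and fell by 0.92 (adjusted p = 0.0364). This call was kept in only 2 of the 8 fits that left out a mouse of the compared groups, those without mouse 2 of either group.

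ONT.6061 was a locus of few reads. It had 6, 13 and 6 reads in the Ctrl + Saline mice, 1, 0, 0, 5 and 2 in the Kdm7a-shRNA + Saline mice, 11, 10, 4 and 11 in the Ctrl + Morphine mice and 1, 0, 0 and 1 in the Kdm7a-shRNA + Morphine mice. On the normalized scale the groups did not overlap in either comparison. ONT.6061 too passed the filter only through Ctrl mice, where it was high. The pooled normalized counts were 5.5 times higher in Ctrl under saline (25 reads against 8, interval 2.41 to 14.1, adjusted p = 0.0222) and 16.5 times higher under morphine (36 reads against 2, interval 4.26 to 142, adjusted p = 0.0125). The saline call was lost without Ctrl + Saline mouse 2 or 3 and the morphine call without Kdm7a-shRNA + Morphine mouse 3.

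**Figure D3:**
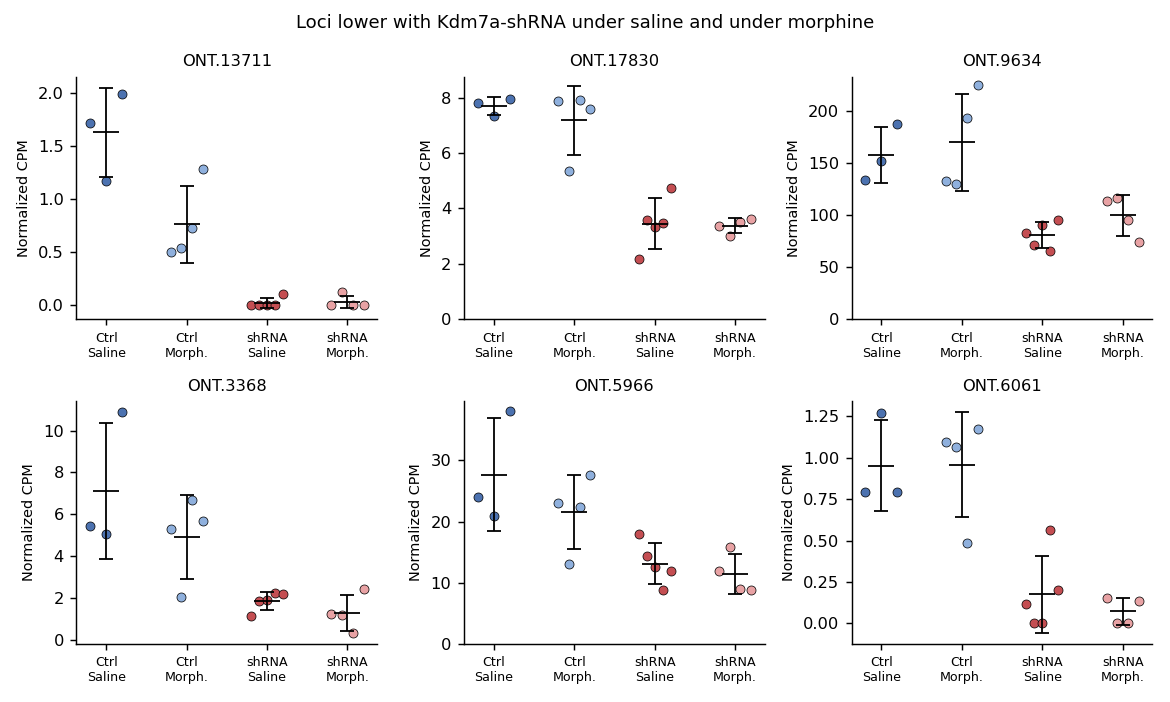
Normalized CPM of the 6 loci that fell in both comparisons, with 1 point per mouse and a bar for the mean and SD of each group. At ONT.13711 all Kdm7a-shRNA mice lie at or near 0, and at ONT.17830 and ONT.9634 they lie below every Ctrl mouse.

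Within groups, the 6 loci did not all vary together. After subtraction of each group's mean, the correlations of log2(normalized CPM + 0.5) over the 16 mice ran from -0.43 to 0.70 over the 15 pairs, with a median of 0.23. These are descriptions, since the loci share the libraries and their depth. Their own correlations with the microglia markers ran from -0.47 to 0.38, with adjusted exact permutation p of 0.251 to 0.87. Some correlations with other marker lists were larger, and none had an adjusted exact permutation p under 0.05. With the neuronal markers r was 0.60 for ONT.6061, -0.54 for ONT.9634 and -0.54 for ONT.5966 (adjusted exact permutation p = 0.14, 0.204 and 0.197). With the astrocyte markers r was 0.54 for ONT.17830 (adjusted exact permutation p = 0.197).

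Under saline only, 5 further loci passed as lower. ONT.12292 had 8.59, 12.8 and 5.70 normalized CPM in the Ctrl + Saline mice and 1.95, 4.03, 5.57, 3.94 and 4.82 in the Kdm7a-shRNA + Saline mice, which did not overlap by a small margin. It fell by 1.16 (SE 0.297, adjusted p = 0.012). Under morphine its log2 fold change was -0.50 (adjusted p = 0.294), and the interaction, the difference between both knockdown effects, was 0.66 (unadjusted p = 0.129).

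ONT.2231 ran from 5.96 to 8.49 normalized CPM in the Ctrl + Saline mice and from 3.15 to 4.61 in the Kdm7a-shRNA + Saline mice and fell by 0.85 (SE 0.245, adjusted p = 0.0219). ONT.9486 had 1.45, 6.05 and 2.12 in the Ctrl + Saline mice, so that mouse 2 led that group, and 0.338 to 2.01 after knockdown. Its fall of 1.47 (adjusted p = 0.0424) was lost without Ctrl + Saline mouse 2 or 3 or without Kdm7a-shRNA + Saline mouse 1, 2 or 4, and the calls of ONT.12292 and ONT.2231 were lost without Ctrl + Saline mouse 2. ONT.15904, named after its values were seen to complete the count, fell by 0.90 (SE 0.307, adjusted p = 0.0468). Under morphine its log2 fold change was of like size, at -0.91 (adjusted p = 0.0716). ONT.2774, described above, is the remaining locus.

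The loci that rose averaged 0.795 to 6.52 normalized CPM, and glial markers were higher in the same groups. Of 4 microglia markers (Cx3cr1, Csf1r, P2ry12 and Tmem119), 3 passed as higher under saline and 1, Cx3cr1, under morphine. Their summed normalized CPM was 252 to 309 in the Ctrl + Saline mice, 200.3 to 289.8 in the Ctrl + Morphine mice, 400.2 to 904 in the Kdm7a-shRNA + Saline mice and 258 to 887 in the Kdm7a-shRNA + Morphine mice, so that the morphine groups overlapped. In addition, 2 of 5 astrocyte markers and 3 of 4 endothelial markers passed as higher under saline, 1 endothelial marker (Pecam1) passed as higher under morphine, and 1 of 7 neuronal markers passed as lower under saline. None of 5 oligodendrocyte markers passed in either comparison. In bulk tissue more cells of a type and more RNA per cell cannot be told apart, and the part of these markers in the loci's changes was not tested.

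ONT.1215 was the locus that rose in both comparisons. It had 1, 0 and 0 reads in the Ctrl + Saline mice, 1, 0, 0 and 1 in the Ctrl + Morphine mice, 5, 22, 16, 5 and 17 in the Kdm7a-shRNA + Saline mice and 5, 1, 46 and 2 in the Kdm7a-shRNA + Morphine mice. On the normalized scale, every Kdm7a-shRNA mouse lay above the Ctrl mice of its treatment. The locus passed the filter only through Kdm7a-shRNA mice, where it was high. The pooled normalized counts were 36.9 times higher after knockdown under saline (65 reads against 1, interval 6.4 to 1480, adjusted p = 0.0192) and 29.4 times higher under morphine (54 reads against 2, interval 7.75 to 249, adjusted p = 0.024). Of the 54 reads, 46 came from mouse 3, and without that mouse the morphine call was lost, as it was without Ctrl + Morphine mouse 1, 3 or 4. The saline call was lost without Ctrl + Saline mouse 2 or 3.

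ONT.1215 followed the microglia markers from mouse to mouse. Within groups its log2 level correlated with the mean log2 level of the 4 markers over 16 mice with a Pearson's r of 0.87 and a Spearman's rho of 0.89. The exact permutation test, with mice exchanged within their groups, gave p = 0.00566 and 6.85e-04, or 0.0696 and 0.0255 adjusted over 160 relations of 32 named loci with 5 marker lists. Pearson's r was 0.75 without the 2 mice whose marker level lay farthest from their group's mean. The relation was not limited to microglia markers. With the astrocyte markers r was 0.79 and rho 0.77 (exact permutation test, adjusted p = 0.07 and 0.0841). With the endothelial markers both were 0.73 (exact permutation test, adjusted p = 0.07 and 0.0517). Over all 16 mice, the known genes with the most similar profile were Tbxas1 (r = 0.97), Milr1 (r = 0.97), Plxdc2 (r = 0.96) and Grn (r = 0.96).

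ONT.16241 had the smallest adjusted p of the risers under saline. It had 0.793, 0.586 and 0.133 normalized CPM in the Ctrl + Saline mice and 2.53, 4.03, 2.96, 1.69 and 3.72 in the Kdm7a-shRNA + Saline mice. It rose by 2.52 on the log2 scale (SE 0.58, adjusted p = 0.00674), and the call held under each alternative that tested it. ONT.16241 would not have passed the filter on Ctrl mice alone. Its being tested thus depended on the Kdm7a-shRNA mice, where it was high. Under morphine, Kdm7a-shRNA mouse 4, with 0.939, lay within the Ctrl range of 0.747 to 1.07, and the log2 fold change was 1.53 (adjusted p = 0.0576). Its r with the microglia markers within groups was 0.79 (rho 0.70, exact permutation p = 0.0101 and 0.0118, adjusted p = 0.07 and 0.0946) and 0.50 without the 2 extreme mice. With the endothelial markers r was 0.80 (rho 0.72, exact permutation p = 0.00629 and 0.0108, adjusted p = 0.0696 and 0.0946). That r was 0.64 without the 2 mice farthest from their group's mean in the endothelial markers.

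ONT.7696 rose by 1.95 under morphine (SE 0.584, adjusted p = 0.044), from 0.599, 0.32, 1.10 and 0.535 normalized CPM to 1.38, 1.20, 5.93 and 0.805. Mouse 3 stood far above the rest and mouse 4 lay within the Ctrl range. The call was lost without mouse 1 or 3 and without any mouse of the Ctrl + Morphine group. The locus correlated within groups with the microglia markers (r = 0.90, rho = 0.88, exact permutation p = 0.00126 and 0.00142, adjusted p = 0.0503 and 0.0255, r = 0.77 without the 2 extreme mice) and with the astrocyte markers (r = 0.88, rho = 0.90, exact permutation p = 4.27e-04 and 1.98e-04, adjusted p = 0.0355 and 0.0251, r = 0.86 without the 2 extreme mice). With the endothelial markers r was 0.75 and rho 0.74 (exact permutation test, adjusted p = 0.0649 and 0.0255). Among known genes its profile over all 16 mice, group differences included, was closest to those of Slc37a2 (r = 0.95) and Adgre1 (r = 0.94). Adgre1 is the macrophage and microglia gene that encodes F4/80.

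ONT.19420 varied with the oligodendrocyte markers. It had 3.69, 2.99, 3.04 and 3.75 normalized CPM in the Ctrl + Morphine mice and 10.1, 9.23, 6.10 and 4.56 in the Kdm7a-shRNA + Morphine mice, with no overlap. The rise of 1.14 (SE 0.349, adjusted p = 0.0478) was kept in only 1 of the 8 fits without a mouse, that without Kdm7a-shRNA + Morphine mouse 4. Within groups it correlated with the oligodendrocyte markers (r = 0.86, rho = 0.84, exact permutation p = 5.91e-04 and 0.00133, adjusted p = 0.0355 and 0.0255, r = 0.79 without the 2 extreme mice). Over all 16 mice, group differences included, its closest known genes were Entpd5 (r = 0.90), Opalin (r = 0.88), Nmral1 (r = 0.864), Cmtm5 (r = 0.855) and Mog (r = 0.851). Opalin and Mog are oligodendrocyte membrane proteins. The summed oligodendrocyte markers ran from 6768 to 12530 in the Ctrl + Morphine mice and from 8493 to 19080 in the Kdm7a-shRNA + Morphine mice.

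**Figure D4:**
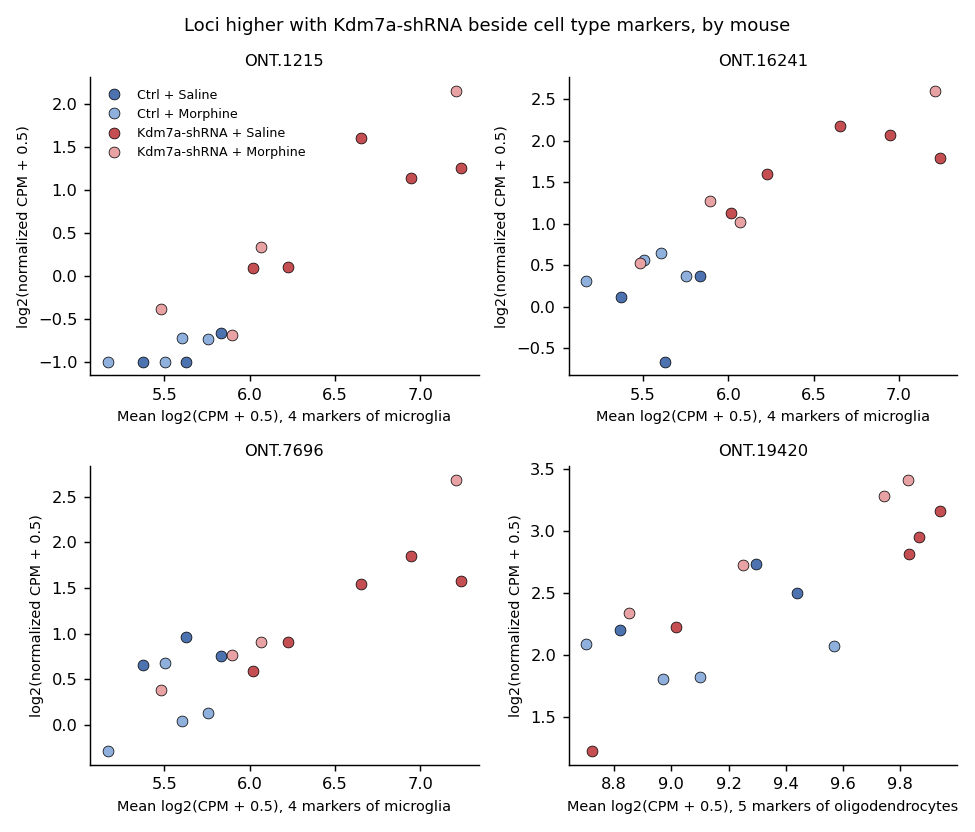
Level of 4 loci against the mean level of 4 microglia or 5 oligodendrocyte markers, both as log2(normalized CPM + 0.5), with 1 point per mouse. The Kdm7a-shRNA mice with high microglia markers are also high at ONT.1215, ONT.16241 and ONT.7696, and ONT.19420 rises along the oligodendrocyte markers.

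The remaining risers held less firmly. ONT.3814 rose by 2.08 under saline (SE 0.496, adjusted p = 0.00807), from 0.133 to 0.397 normalized CPM in the Ctrl mice to 0.787 to 2.41 in the Kdm7a-shRNA mice, with no overlap. Its reads were few, 1 to 4 per Ctrl + Saline mouse, and the call was lost without Ctrl + Saline mouse 3. It passed the filter only through Kdm7a-shRNA mice, where it was high. ONT.18253, at 4.36 to 5.37 against 6.03 to 8.41, rose by 0.62 (adjusted p = 0.0254) with no overlap, and the call was lost without mouse 1 or 3 of the former group or mouse 1 or 2 of the latter.

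ONT.4153, ONT.16719 and ONT.3536 also rose under saline, by 1.76, 1.03 and 1.33, with adjusted p of 0.0334, 0.0455 and 0.0459. ONT.4153 was lost without Ctrl + Saline mouse 1 or 2 or Kdm7a-shRNA + Saline mouse 3 or 4. The other two were kept in only 2 of the 8 fits each, ONT.16719 without mouse 1 of either group and ONT.3536 without Ctrl + Saline mouse 1 or Kdm7a-shRNA + Saline mouse 4. ONT.4153 and ONT.3536 would not have passed the filter on Ctrl mice alone and were tested because of Kdm7a-shRNA mice, where they were high. Under morphine, ONT.15839 rose by 1.23 (adjusted p = 0.0374) and ONT.11968 by 1.75 (adjusted p = 0.043). At ONT.15839 the Kdm7a-shRNA mice had 3.52 to 8.94 normalized CPM and the Ctrl mice 1.28 to 3.40, with no overlap. ONT.11968 did not overlap either, by a small margin, at 0.919 to 2.04 against 0.213 to 0.899, and passed the filter only through Kdm7a-shRNA mice. The former call was lost without mouse 3 or 4 of the Ctrl group or mouse 2 or 3 of the Kdm7a-shRNA group. The latter was kept only without Ctrl mouse 1 or Kdm7a-shRNA mouse 4. Neither locus correlated with the microglia markers past the threshold. For ONT.15839 r was 0.43 (rho 0.20, exact permutation p = 0.174 and 0.513, adjusted p = 0.429 and 0.721) and 0.11 without the 2 extreme mice.

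Morphine withdrawal itself moved no locus past the thresholds. Between Ctrl + Morphine and Ctrl + Saline mice, 0 of the 102 loci passed with edgeR's quasi-likelihood test, where the background over all rows tested was 0%. None passed with edgeR's exact test either, where the background was 0.876%, or with DESeq2, which gave an adjusted p to 42 of the loci and called 1.47% of the rows with one. At an unadjusted p under 0.05 in the quasi-likelihood test there were 8 loci (7.84%), compared with 11.7% of all rows. The smallest p belonged to ONT.9486, with 0.699 to 1.28 normalized CPM in the Ctrl + Morphine mice against 1.45 to 6.05 in the Ctrl + Saline mice (log2 fold change -1.78, SE 0.531, adjusted p = 0.19). ONT.2231 (log2 fold change -0.73, adjusted p = 0.259) and ONT.4153 (log2 fold change 1.59, adjusted p = 0.274) followed.

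These 3 loci share their Ctrl + Saline mice with the knockdown comparison under saline. There their log2 fold changes were -1.47, -0.85 and 1.76, in the same order. The comparisons are therefore not separate observations of these loci.

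Under the knockdown virus, morphine likewise moved no locus past the thresholds with the same 3 tools. The background was 0.00531% with the quasi-likelihood test, 0.0797% with the exact test and 0.132% with DESeq2, which gave an adjusted p to 64 of the loci. At an unadjusted p under 0.05 there were 3 loci (2.94%), compared with 7.02% of all rows. ONT.15388 had 223, 147, 190, 267 and 189 normalized CPM in the Kdm7a-shRNA + Saline mice and 296, 245, 314 and 243 in the Kdm7a-shRNA + Morphine mice, with overlap (log2 fold change 0.44, SE 0.146, adjusted p = 0.599). ONT.16719 had 1.95 to 4.52 against 1.23 to 2.41 (log2 fold change -0.93, adjusted p = 0.611) and ONT.13272 had 0.356 to 1.91 against 0.859 to 2.998 (log2 fold change 1.09, adjusted p = 0.703).

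The knockdown effect was not shown to differ between morphine and saline at any locus. No locus passed the interaction test of edgeR, with a background of 0.085% of all rows, or that of DESeq2, which gave an adjusted p to 71 of the loci and had a background of 1.36%. With edgeR 4 loci (3.92%) had an unadjusted p under 0.05, compared with 10.7% of all rows. The smallest adjusted p was 0.311, for ONT.2231, with an interaction of 0.94 (SE 0.35). ONT.10670 had 0.98 (SE 0.433, adjusted p = 0.421) and ONT.9486 had 1.68 (SE 0.745, adjusted p = 0.421). The loci called under only one treatment are thus not shown to respond differently there.

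The order of the numbers holds some information on where the loci lie. Of the 346 known lncRNA loci, which carry numbers of the same series, 239 name 1 Ensembl gene that GENCODE vM21 places on GRCm38, the build the files use (mm10). Over these 239, all 238 steps from one number to the next follow genome order, by chromosome name, then plus before minus strand, then start, with 0 out of order. The numbers therefore bracket a locus between known ones, as an inference from the order and not from a stated position. Of the 144 loci, 82 fall between anchors on the same chromosome and strand, with a median width of 23.8 Mb, and 4 of those within 1 Mb. The other 62 fall where the chromosome or the strand changes. No sequence of any locus is printed, because the table pairs none with it.

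ONT.10670 has the narrowest bracket. It lies between Zfas1 (ONT.10669) and 1110018N20Rik (ONT.10672) on the plus strand of chromosome 2 and averaged 31.8 normalized CPM. Within groups its correlation with Zfas1, the neighbour in number, was r = -0.20, which is a description. The locus was lower where microglia markers were higher (r = -0.73, rho = -0.79, exact permutation p = 6.66e-04 and 3.13e-04, adjusted p = 0.0355 and 0.0251, r = -0.75 without the 2 extreme mice). It was higher where neuronal markers were higher (r = 0.74, rho = 0.76, exact permutation test, adjusted p = 0.0696 and 0.0255). The strand used in counting is not given in the sources used here, so reads of an assembled locus and of a gene on the other strand may not be told apart.

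The levels of ONT.10670 were 36.0, 58.8 and 43.2 normalized CPM in the Ctrl + Saline mice, 17.2, 40.7, 29.6 and 29.5 in the Ctrl + Morphine mice, 19.99, 19.7, 19.8, 47.1 and 19.8 in the Kdm7a-shRNA + Saline mice and 34.9, 39.2, 19.8 and 33.1 in the Kdm7a-shRNA + Morphine mice. Kdm7a-shRNA + Saline mouse 4 stood apart from 4 mice of nearly equal level. The log2 fold change under saline was -0.86 (adjusted p = 0.0542) and under morphine 0.12 (adjusted p = 0.851).

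Other brackets are wider. ONT.12292 follows 1700113A16Rik directly in number and falls within chr3:88171556-88782943 on the minus strand, a stretch dense in genes. ONT.3814 comes directly before 2610035D17Rik on the minus strand of chromosome 11. ONT.10386 comes directly after 1700020I14Rik on the plus strand of chromosome 2, and both were lower in the Kdm7a-shRNA + Saline mice (1700020I14Rik by 0.96, adjusted p = 0.00742). In all, 14 loci are next in number to a known lncRNA locus, and the correlations of the 14 pairs over all mice ran from -0.47 to 0.53 with a median of 0.14. ONT.13476, ONT.13711, ONT.13757 and ONT.13272 share a bracket that spans the change from the plus to the minus strand of chromosome 4.

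ONT.4712 was abundant in some mice and had no read in others. It had 395, 563 and 0 reads in the Ctrl + Saline mice, 2304, 0, 40 and 0 in the Ctrl + Morphine mice, 493, 1, 2, 2 and 22 in the Kdm7a-shRNA + Saline mice and 53, 281, 1 and 0 in the Kdm7a-shRNA + Morphine mice. High and empty mice thus occurred within the same groups, and 55.4% of its 4157 reads came from a single mouse. Its coefficient of variation of 2.03 was the highest of the 102 tested loci. Its log2 fold change of knockdown was -1.60 under saline (SE 1.74, adjusted p = 0.549) and -2.50 under morphine (SE 1.8, adjusted p = 0.414).

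The known genes with the profile most similar to ONT.4712 over the 16 mice were Igkv4-54 (r = 0.88), Iglc2 (r = 0.84), Igkv4-62 (r = 0.84), Ly6d (r = 0.83) and Cd79a (r = 0.81). Igkv4-54, Igkv4-62 and Iglc2 encode immunoglobulin light chain segments, and Cd79a encodes part of the B cell receptor complex. Jchain, which joins secreted immunoglobulins, had 787, 480 and 1 reads in the Ctrl + Saline mice, 1709, 2, 399 and 256 in the Ctrl + Morphine mice, 1101, 5, 134, 987 and 36 in the Kdm7a-shRNA + Saline mice and 739, 315, 2 and 4 in the Kdm7a-shRNA + Morphine mice. In all 5 mice with over 200 reads of ONT.4712, Jchain had over 300 reads. The reverse did not hold, since Kdm7a-shRNA + Saline mouse 4 had 987 reads of Jchain and 2 of ONT.4712. These genes were chosen after the values were seen, and the correlations are descriptions. Hbb-bs, a red blood cell gene, correlated less with the locus (r = 0.41).

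By its number, ONT.4712 falls between 2810029C07Rik (chr12:111572317-111574402, minus strand) and 1110046J04Rik (chr13:33935567-33960181, plus strand). The bracket covers the end of chromosome 12 on the minus strand and the beginning of chromosome 13 on the plus strand. GENCODE places 312 genes in the former stretch, 144 of them immunoglobulin heavy chain gene segments, and 391 genes with no immunoglobulin segment in the latter. Of the 13 immunoglobulin constant genes of GENCODE, 1 has a row of its own in the table. Whether ONT.4712 is a heavy chain transcript was not tested, because no sequence is paired with it.

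**Figure D5:**
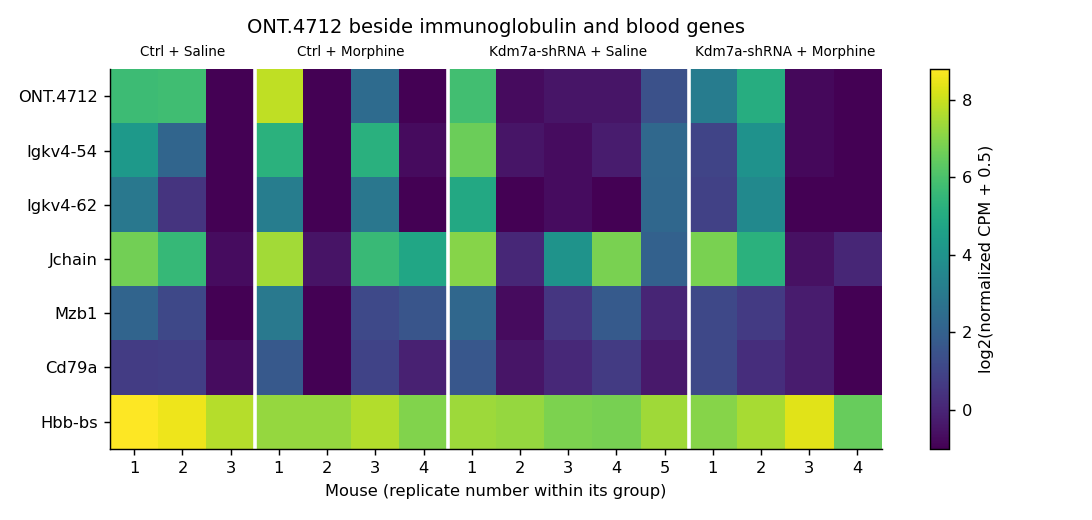
Level of ONT.4712, immunoglobulin light chain genes, Jchain, Mzb1, Cd79a and the hemoglobin gene Hbb-bs in each mouse, as log2(normalized CPM + 0.5) in color, with mice in columns by group. The 5 mice highest at ONT.4712 have 37.8 to 171 normalized CPM of Jchain, although Ctrl + Saline mouse 2, with 54.9 of ONT.4712, has only 0.878 of Igkv4-62, and Hbb-bs is high in every mouse.

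Among 8001 pairs of loci with at least 50 reads each, none had identical counts. In 117 pairs the counts differed by no more than counting error in every mouse, and their highest correlation of log2 levels was 0.79, between ONT.18253 and ONT.645 with 923 and 897 reads. The table gives no position from which neighbours that share a transcript could be found. The only pair with consecutive numbers was ONT.18534 and ONT.18535, at 1.21 and 0.734 normalized CPM, with r = 0.54 over all mice.

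For comparison, annotated lncRNAs were looked up by name among the known lncRNA loci. Of 41 names, 15 had a locus, all 15 tested. Under saline 2 passed as higher (Zfas1 and Epb41l4aos) and 3 as lower (Rian, Pantr1 and 1700020I14Rik), and under morphine Meg3 passed as lower. Neither morphine comparison moved any of the 15 past the thresholds.

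The 5 with most reads were Gas5, Rian, Meg3, Pantr1 and Zfas1. Gas5, a host of small nucleolar RNAs, averaged 2522 normalized CPM in Ctrl + Saline and 3709 in Kdm7a-shRNA + Saline mice, and its log2 fold change of 0.56 (adjusted p = 0.00417) missed the fold change threshold. Rian and Meg3 are imprinted transcripts of the same domain. Rian fell by 0.82 under saline (adjusted p = 0.0186), and Meg3 fell by 0.75 under morphine (adjusted p = 0.00235). Pantr1, a brain lncRNA, fell by 0.72 under saline (adjusted p = 0.00393), and Zfas1, another host of small nucleolar RNAs, rose by 0.74 (adjusted p = 0.00279). ONT.13476, at 1106 to 2172 normalized CPM, thus had about as many reads as Rian (mean 1180) and Meg3 (mean 1017), while the median assembled lncRNA locus had 1.41.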

How the data were processed

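Whole mPFC RNA of 16 mice was sequenced as PCR-amplified cDNA on the Nanopore platform. The authors kept full-length reads, aligned them to mm10 with minimap2, assembled loci and deposited, per locus and mouse, the count of assigned reads without normalization. The deposited CPM is that count relative to the column total and was used only to check the counts, which it matched to within 4.99e-06. Mice with the same number in different groups are separate animals. The deviations of same-numbered mice correlated at 0.125 to 0.224 between Ctrl + Saline and Ctrl + Morphine, where all 3 pairs were over 0.1 and the block left the count at 0, and at -0.12 to 0.43 over all 21 pairs. The submitters' notes name edgeR 3.8.6 for the authors' tests.

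Here the counts were tested with edgeR 4.0.16 in R 4.3.3: filterByExpr, TMM, 1 quasi-likelihood fit of all 16 mice on the 4 groups, 5 contrasts, and Benjamini-Hochberg adjustment over all 18826 rows kept. A locus passed when the adjusted p was under 0.05 and it changed at least 1.5-fold. Library sizes were the column totals. All p-values are two-sided, and every adjusted p without another name comes from this fit. Ratios for loci with few reads are of pooled counts over the pooled scaled library sizes, with exact (Clopper-Pearson) 95% intervals. DESeq2 1.42.0, edgeR's exact test and other filters, normalizations and sets of mice were alternatives. The procedure was tested on simulated data. Positions and gene types came from GENCODE vM21 (GRCm38), and correlations from scipy on log2(normalized CPM + 0.5).

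The named loci were the 10 with the highest mean, in each comparison up to 10 higher and 10 lower calls or else the 3 with the smallest p, the 3 with the widest range, and any sets of loci that could not be told apart. The members, lists and this rule were chosen with earlier results of these data known. Of further marker lists, striatal neurons (5 genes) had no call in either knockdown comparison, while 2 of the 3 tested genes of choroid plexus and blood and 2 of 13 mitochondrially encoded genes were lower under saline, and 3 of the latter were higher under morphine. Of the microglia list, 1 marker is not reported here and entered no value.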

Additional observations from a re-analysis of the deposited data

Results flagged for a closer look

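Among the 32 named loci, a mouse that stood apart from the rest of its group by Dixon's criterion was found 12 times in 96 groups of 4 or 5 mice. Chance alone flags about 1 group in 20. The groups of 3 mice were not examined, and the causes were not tested.

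ONT.13476 had 2170 normalized CPM in Kdm7a-shRNA + Morphine mouse 2, and 1110 to 1190 in the other mice of that group. Kdm7a-shRNA + Morphine mouse 3 was the highest at ONT.1215, with 3.95 against 0.12 to 0.766, and at ONT.7696, with 5.93 against 0.805 to 1.38. That mouse also had the second highest microglia marker level of all 16 mice.

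Kdm7a-shRNA + Saline mouse 4 was the highest at ONT.10670, with 47.1 against 19.7 to 19.99, and at ONT.13272, with 1.91 against 0.356 to 0.804. At ONT.4712, Ctrl + Morphine mouse 1 had 230.0 against 0 to 4.87, and Kdm7a-shRNA + Saline mouse 1 had 56.6 against 0.115 to 2.21. Ctrl + Morphine mouse 1 was also the highest at ONT.11968, with 0.899 against 0.213 to 0.243.

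The lowest mice of the Ctrl + Morphine group were mouse 2 at ONT.17830, with 5.34 against 7.6 to 7.91, and mouse 3 at ONT.6061, with 0.487 against 1.07 to 1.18. At ONT.13711 the flag only marks single reads, which gave 0.101 in Kdm7a-shRNA + Saline mouse 5 and 0.12 in Kdm7a-shRNA + Morphine mouse 2 while the other mice had none.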

How the results depend on the processing

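Of 28 named-locus calls in both knockdown comparisons, 8 held whichever mouse was left out and under every other alternative that tested the locus. The 8 are ONT.13711, ONT.17830 and ONT.3368 in both comparisons, and ONT.9634 and ONT.16241 under saline. ONT.13711 and ONT.16241 would not have passed the filter without the mice of the virus where they were high. The share of held calls over all called rows was not computed. None of the 575 alternative values of named loci turned its direction. Most of these loci were chosen by the main fit and the refits share its mice, so a turn was unlikely from the start. Requiring at least 10 counts in every mouse, which left 53 loci to test, gave 4 calls under morphine, 1 higher and 3 lower, and 9 under saline, 0 higher and 9 lower, and a fit of only the compared groups gave 4 under morphine. Of the 13547 rows with at least 10 counts in every mouse, 314 were higher and 383 lower under morphine. Under saline 931 of them were higher and 921 lower. Leaving out 1 mouse gave 3 to 12 calls under morphine and 9 to 24 under saline, and 568 to 2066 and 1424 to 3730 over all rows. The other alternatives stayed within 1.5 times the count. With the replicate block, 9 loci passed under morphine, 2 higher and 7 lower and 7 of them shared, and 18 under saline, 7 higher and 11 lower and 16 of them shared. It called 0 of the loci in the other comparisons. Of all 18826 rows, the block gave 563 higher and 893 lower under morphine, and 1507 and 1691 under saline. In both knockdown comparisons the numbers do not pair the mice, since not every correlation was over 0.1. Loci of few reads had wide counting intervals, such as 11.9 to 2850 for the ratio of ONT.13711 under saline. DESeq2 gave 7 higher and 7 lower loci under morphine and 6 and 14 under saline. Of the 18822 rows to which it gave an adjusted p, 752 were higher and 945 lower under morphine, and 1551 and 1807 under saline.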
